A study of Homo sapiens with 4 samples.

Results

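NEAT1, MALAT1 and 7 genes for proteins of the paraspeckle or that meet NEAT1 RNA (SFPQ, NONO, PSPC1, RBM14, TARDBP, DAZAP1 and MATR3) were followed by gene name through 4 RNA-seq libraries, as 9 of 29655 names. They were chosen by name with the results of the same contrast already known, so their values are given as a description, with no test of their own. The cells were labelled UMSCC74B, a cell line of head and neck cancer (squamous, HNSCC on the labels) marked WT. A control shRNA was used for 2 libraries and an shRNA against PRMT5 for the other 2 (PRMT5 KD), and all cells were collected after 72 h. Delivery was by plasmid transfection according to the labels and by lentiviral particles according to the methods, and neither states how many shRNA sequences or clones were pooled. Nothing says that the replicates came from separate cultures, so p-values measure the spread between these libraries, which may be technical.

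NEAT1 and MALAT1 are long RNAs that stay in the nucleus and are transcribed from neighbouring genes. The long NEAT1 isoform is the scaffold of paraspeckles, bodies that form around it when SFPQ and NONO coat it, and cells without it have none. MALAT1 RNA gathers at nuclear speckles, which store splicing factors. PRMT5, the enzyme targeted here, places symmetric dimethyl marks on arginine, and many proteins that bind RNA are among its substrates.

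NEAT1 lies on chr11:65422774-65445540 and MALAT1 on chr11:65497640-65508073, both on the plus strand and 52.1 kb apart (GENCODE 44, GRCh38). Neither the long NEAT1 isoform nor MALAT1 ends in a conventional poly(A) tail. RNase P cuts ahead of a small RNA shaped like a tRNA, and the new end is guarded by a triple helix that pairs U-rich stretches with an A-rich tract. The ends are shown because they are a known feature that both RNAs share. Capitals mark TTTGCTTT and AAAGCAAA, and each line gives the plus strand of GRCh38.
NEAT1 last bases, chr11:65445441-65445540: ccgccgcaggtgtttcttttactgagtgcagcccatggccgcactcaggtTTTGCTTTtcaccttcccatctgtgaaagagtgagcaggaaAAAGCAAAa
NEAT1 small RNA, chr11:65445541-65445598: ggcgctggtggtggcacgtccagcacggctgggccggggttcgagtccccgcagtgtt
MALAT1 bases before mascRNA, chr11:65506017-65506116: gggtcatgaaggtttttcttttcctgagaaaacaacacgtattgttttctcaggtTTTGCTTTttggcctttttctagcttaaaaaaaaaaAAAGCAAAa
mascRNA, chr11:65506117-65506174: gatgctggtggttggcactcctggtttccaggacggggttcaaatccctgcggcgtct

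In the 100 bases before the cut, TTTGCTTT began at base 51 in NEAT1 and at base 56 in MALAT1, and AAAGCAAA began at base 92 in both. The motifs are reverse complements of each other, so a search of both strands for either finds the same letters. Among the last 100 bases of 249762 annotated transcripts, TTTGCTTT was found in 0.662% and AAAGCAAA in 0.805%, and 9 transcripts held the former followed by the latter. That search included the long NEAT1 isoform and took each isoform of a gene separately. How many of the 9 belong to NEAT1 or MALAT1 was not counted. The small RNAs matched at 42 of 62 aligned positions (67.7%). The libraries count whole genes, so the cut ends themselves were not measured.

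The libraries held 52185289 and 65964558 estimated counts in control and 64233361 and 55328869 in PRMT5 KD. The 23 rRNA names took 15.3% and 14.2% of the counts in control and 26.2% and 18.02% in PRMT5 KD. PRMT5 mRNA, the target of the shRNA, was higher in PRMT5 KD, so PRMT5 KD is used below as the label of these libraries. The study checked the silencing on the protein by immunoblot, which was not analysed here. Whether libraries were exchanged between the groups was not tested, and an exchange would turn every direction given below. Its level was 72.8 and 64.8 counts scaled to library size (CPM) in control and 104 and 120 CPM in PRMT5 KD, a log2 fold change of 0.70 ± 0.13 (SE; adjusted p = 0.00458, edgeR quasi-likelihood test with Benjamini-Hochberg adjustment). The HNSCC label was checked on 6 squamous markers. KRT5 and KRT6A had at most 4 counts in any library, KRT14 had 0 and 0 in control against 11 and 22 in PRMT5 KD, and KRT17 had 5 and 6 against 53 and 71. TP63 had 218 and 330 counts in control against 83 and 144, and SFN 3 and 5 against 28 and 86. The keratins that define squamous epithelium were therefore at or near 0 in both groups. They do not bear out the squamous label, and the identity of the cells in either group was not tested. Of 5 markers of other cell types, CD3E had 0 counts throughout, PTPRC at most 5 and DES at most 12. The fibroblast collagen COL1A2 had 6542 and 9574 counts in control against 744 and 553, and the endothelial PECAM1 293 and 489 against 14 and 7. Summed over the lists, squamous markers ranged from 226 to 342 counts in control, nearly all of them TP63, and from 175 to 327 in PRMT5 KD. The other markers ranged from 6840 to 10071 and from 574 to 763. COL1A2, PECAM1 and TP63 moved the same way as NEAT1 and MALAT1 below, and KRT14, KRT17 and SFN the opposite way. The part of these markers in those results was not tested.

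NEAT1 was among the names with the most counts in control, without regard to its length, and was several-fold lower in the libraries labelled PRMT5 KD. It had 92929 and 92819 estimated counts in control and 16713 and 17116 in PRMT5 KD. After scaling by the trimmed mean of M-values (TMM), this was 1812 and 1427 CPM against 276 and 287 CPM. Both PRMT5 KD libraries were below both control libraries, and the gap was far wider than the spread within either group. The means were 1619 ± 272 CPM in control and 282 ± 7.65 CPM in PRMT5 KD (SD, n = 2). The log2 fold change was −2.52 ± 0.18 (SE), a level 5.75-fold lower. NEAT1 moved from rank 33 and 47 among all names in control to rank 414 and 377, by counts not corrected for length. It took 0.178% of the counts in control replicate 1 (95% Wilson interval 0.177% to 0.179%) and 0.0260% in PRMT5 KD replicate 1 (0.0256% to 0.0264%), where the interval covers counting error only. The gene count covers the short isoform (NEAT1-201, 3441 bases) and the long one (NEAT1-202, 22743 bases), which share their start and cannot be told apart here. In bulk RNA, fewer cells that express a gene and less of its RNA per cell cannot be told apart either.

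MALAT1, the most abundant member, was lower as well in the libraries labelled PRMT5 KD, with more spread there. It had 800549 and 883694 counts in control and 90385 and 158463 in PRMT5 KD. The levels were 15608 and 13585 CPM in control and 1493 and 2656 CPM in PRMT5 KD, again with no overlap. PRMT5 KD replicate 2 held more MALAT1 than replicate 1, while the NEAT1 levels of these libraries were close. The means were 14597 ± 1431 and 2075 ± 823 CPM (SD, n = 2), with a log2 fold change of −2.81 ± 0.34 (SE), a level 7.04-fold lower. MALAT1 stood at rank 3 and 4 among all names in control and at rank 29 and 6 in PRMT5 KD. Leaving out PRMT5 KD replicate 1 gave −2.46 and leaving out PRMT5 KD replicate 2 gave −3.27, whereas NEAT1 stayed between −2.67 and −2.34 when any library was left out. The ratio of MALAT1 to NEAT1 in RPKM (CPM per kilobase of exon) was 18.8 and 20.8 in control and 11.8 and 20.2 in PRMT5 KD, so the groups overlapped.

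**Figure D1:**
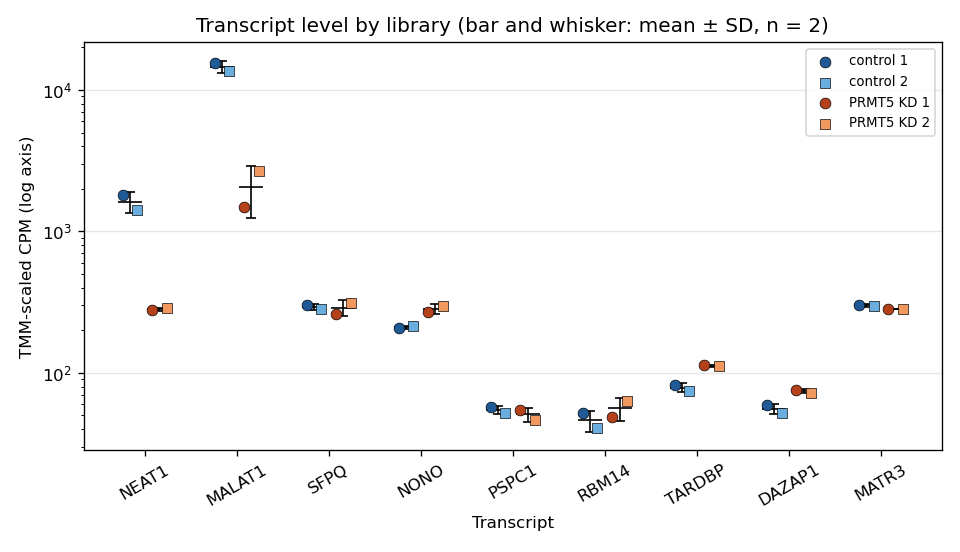
The y axis gives TMM-scaled CPM on a log axis for the 9 members, with circles for replicate 1, squares for replicate 2, control in blue and PRMT5 KD in orange, and bars with whiskers for mean ± SD (n = 2). NEAT1 and MALAT1 drop by 5.75-fold and 7.04-fold, while the 7 protein mRNAs lie within 1.42-fold of their control means on the fitted scale.

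SFPQ, NONO and PSPC1 encode the DBHS family, the paired RNA-binding proteins at the core of the paraspeckle. SFPQ, needed for paraspeckles to form, measured 304 and 281 CPM in control and 261 and 314 CPM in PRMT5 KD. Its PRMT5 KD libraries lay on either side of the control ones, and the log2 fold change was −0.02 ± 0.14 (SE). NONO, its usual partner, measured 207 and 213 CPM in control and 268 and 299 CPM in PRMT5 KD. Both NONO values were higher in PRMT5 KD than in control, with a log2 fold change of 0.44 ± 0.12. PSPC1, the family member named after the body itself, measured 57.4 and 52.1 CPM against 55.0 and 46.7 CPM, with overlapping groups and a log2 fold change of −0.11 ± 0.13. NONO was thus the DBHS mRNA whose groups did not overlap, and the SFPQ and PSPC1 differences were within the spread of the replicates.

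RBM14, a coactivator with a prion-like domain that paraspeckles also need, measured 51.7 and 40.5 CPM in control and 48.6 and 63.7 CPM in PRMT5 KD. Its groups overlapped and its log2 fold change was 0.29 ± 0.18. The readthrough gene RBM14-RBM4 shares RBM14 exons and held at most 220 counts in a library, beside 2636 or more for RBM14. TARDBP encodes TDP-43, which binds UG repeats and favours the short NEAT1 isoform. It measured 82.5 and 74.9 CPM in control against 113 and 111 CPM in PRMT5 KD, a log2 fold change of 0.51 ± 0.11 with no overlap. DAZAP1, a splicing regulator needed for intact paraspeckles, measured 59.1 and 52.3 CPM against 76.1 and 72.6 CPM, a log2 fold change of 0.42 ± 0.12, also with no overlap. MATR3, a nuclear matrix protein that binds RNA, measured 304 and 295 CPM against 284 and 284 CPM. The MATR3 groups did not overlap, yet the log2 fold change was only −0.08 ± 0.12. The name MATR3 covers 2 gene records of the annotation on the same stretch of chr5, which were merged.

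All 9 members passed the filter on low values. A name was called when its adjusted p was under 0.05 and its absolute log2 fold change at least 0.5. Of 13029 names tested, 5932 were called (45.5%), 3077 of them lower (23.6%) and 2855 higher (21.9%) in PRMT5 KD. Members called lower were NEAT1 and MALAT1, 2 of 9, and TARDBP was called higher, 1 of 9. Groups did not overlap for 6 of the 9 members, against 80.0% of all names tested. Because the members were proposed from this contrast, nothing is read from these counts. TARDBP lay just inside the threshold at 0.51, and NONO (0.44) and DAZAP1 (0.42) lay just outside it. Without control replicate 2 or without PRMT5 KD replicate 1, TARDBP stood at 0.45 or 0.49 and was no longer called, and without PRMT5 KD replicate 1 NONO stood at 0.51 and was called. With the length and GC correction TARDBP (0.45) was not called and NONO (0.60) and DAZAP1 (0.57) were. The median log2 fold change of the 7 protein mRNAs was 0.29, with 4 above 0 and 3 below, beside −0.0048 over all names tested. By contrast, 235 names of 13029 had a lower fold change than NEAT1 and 180 a lower one than MALAT1.

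**Figure D2:**
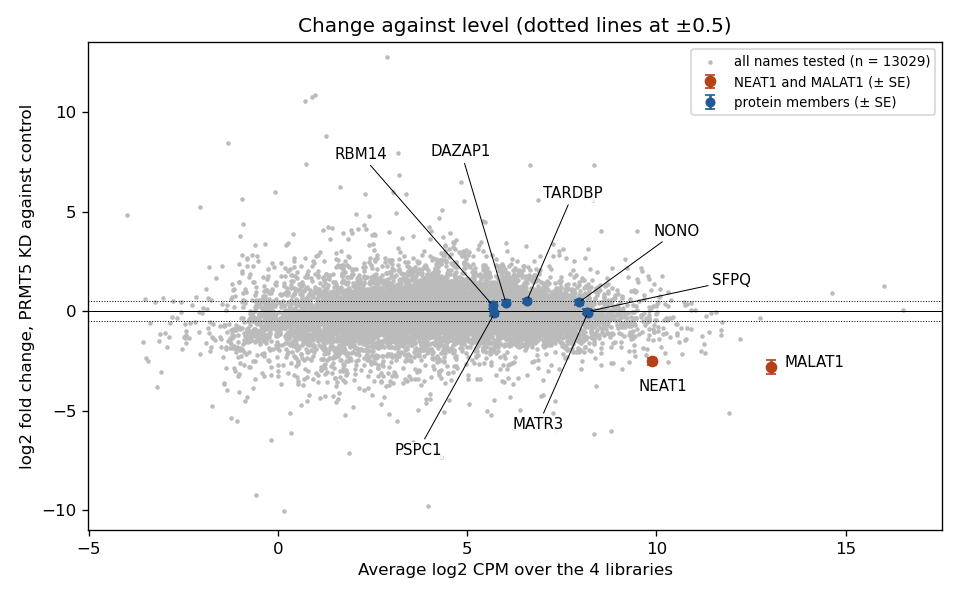
Each grey point is a name tested (n = 13029), with the average log2 CPM of the 4 libraries on the x axis and the log2 fold change of PRMT5 KD against control on the y axis; bars on the members are SE. MALAT1 (−2.81) and NEAT1 (−2.52) lie below most of the cloud, with 180 and 235 names lower still, and the 7 protein mRNAs lie between −0.11 and 0.51.

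Levels of the members were compared per length, as RPKM over the union of annotated exons. In control, the order was MALAT1 (1399 ± 137 RPKM), NEAT1 (71.1 ± 11.96), SFPQ (37.9 ± 2.09), MATR3 (22.6 ± 0.432), NONO (18.7 ± 0.410), TARDBP (12.7 ± 0.867), PSPC1 (11.4 ± 0.770), RBM14 (7.11 ± 1.22) and DAZAP1 (6.05 ± 0.517). RBM14 and DAZAP1 overlapped there, and every other neighbouring pair in the order was separate. In PRMT5 KD, MALAT1 was still the highest at 199 ± 78.8 RPKM, but NEAT1 was sixth at 12.4 ± 0.336 RPKM. SFPQ (37.3 ± 4.81), NONO (25.3 ± 1.93), MATR3 (21.4 ± 0.0219) and TARDBP (18.1 ± 0.237 RPKM) stood above NEAT1. PSPC1 (10.6 ± 1.22), RBM14 (8.67 ± 1.65) and DAZAP1 (8.08 ± 0.271 RPKM) followed, with PSPC1 overlapping RBM14 and RBM14 overlapping DAZAP1. On the union length of 22767 bases, NEAT1 thus passed from above all 7 protein mRNAs to below 4 of them. This order depends on that length. With the 3441 bases of the short isoform, NEAT1 would have stayed above all 7 in PRMT5 KD.

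The ratio of each RNA to a partner within a library does not depend on how libraries are scaled. The NEAT1 to SFPQ ratio in RPKM was 2.02 and 1.72 in control and 0.358 and 0.310 in PRMT5 KD, 5.60-fold lower. Against NONO the NEAT1 ratio was 4.32 and 3.30 in control and 0.507 and 0.473 in PRMT5 KD, 7.72-fold lower. Against TARDBP it was 5.97 and 5.18 in control and 0.664 and 0.703 in PRMT5 KD, 8.13-fold lower and the widest change of the 7. Against PSPC1 it was 6.68 and 5.79 in control and 1.06 and 1.30 in PRMT5 KD, 5.30-fold lower and the smallest change. For all 7 partners, both PRMT5 KD ratios were below both control ratios. The 7 ratios share the NEAT1 level, which changed far more than that of any partner. They are therefore not 7 separate observations. The median change of NEAT1 against its partners was −2.80 on the log2 scale (range −3.02 to −2.40), and the median log2 ratio moved from 2.47 to −0.55. MALAT1 showed a median change of −3.15 (range −3.38 to −2.76) against the same mRNAs, and its median log2 ratio moved from 6.78 to 3.40. All 7 ratios were again lower in both PRMT5 KD libraries, and they share the MALAT1 level in the same way. The MALAT1 to SFPQ ratio, for example, was 38.0 and 35.8 in control and 4.23 and 6.26 in PRMT5 KD. These levels depend on the NEAT1 length used, but the changes do not.

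**Figure D3:**
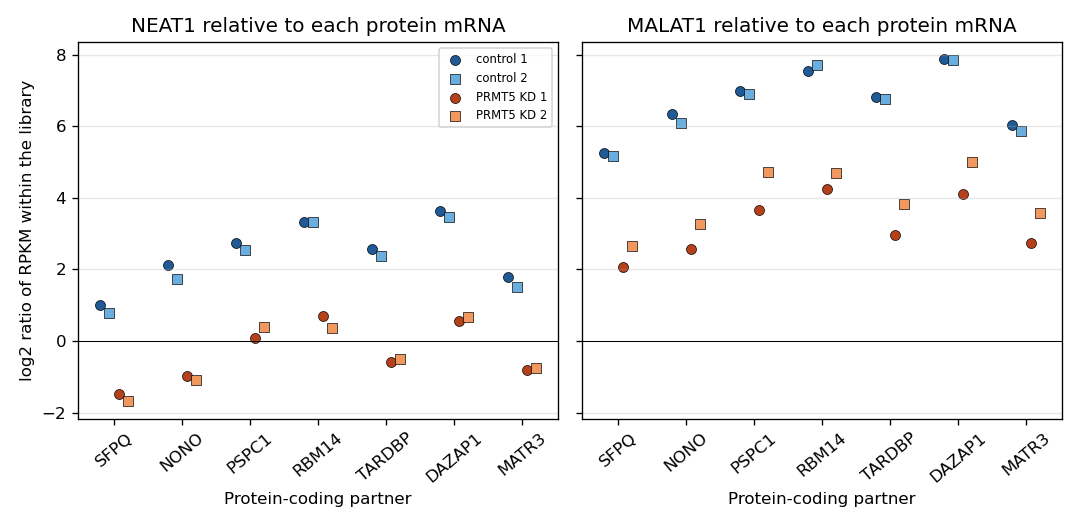
The y axis gives the log2 ratio of RPKM of NEAT1 (left) or MALAT1 (right) to each of the 7 protein mRNAs within a library, with control in blue and PRMT5 KD in orange. All control ratios lie above all PRMT5 KD ratios for each partner. The ratios in a panel share the level of the same RNA. With its union exon length, NEAT1 passes below the line of equal RPKM (0) against SFPQ, NONO, TARDBP and MATR3. This crossing depends on the NEAT1 length used.

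The lower NEAT1 and MALAT1 levels were set beside properties that NEAT1 and MALAT1 share with other genes. Of 393 names annotated as lncRNA, 127 were called lower (32.3%) and 41 higher, and the median change was −0.42 on the log2 scale. Of 11642 protein-coding names, 2647 were called lower (22.7%), with a median of 0.037. Levels also moved with exon length, though not evenly. With the names split by length into equal bins, the median was 0.061 in the shortest (up to 1908 bases), 0.18 at 1909 to 2774 bases, −0.17 at 8898 to 11822 bases, which include MALAT1, NONO and DAZAP1, and −0.26 among names of 11832 bases or more, which include NEAT1 (22767 bases) and MATR3. In a fit that corrected for exon length and GC content, NEAT1 changed by −2.14 and MALAT1 by −2.70. With libraries scaled by total counts outside rRNA, all names shifted by a median of 0.16, and NEAT1 stood at −2.36 and MALAT1 at −2.64. Under that scaling SFPQ, PSPC1 and MATR3 turned to 0.14, 0.06 and 0.09, and NONO (0.60) and DAZAP1 (0.58) were called.

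A further 30 genes for paraspeckle proteins, listed from general knowledge, were all tested. This list and those below were made with earlier results of these data known. Of the 30, 5 were called higher and 2 lower, and the median log2 fold change was 0.28 beside −0.0048 over all names. The cold-inducible RBM3 rose from 78.2 and 79.5 CPM to 171 and 180 CPM, a log2 fold change of 1.15 ± 0.11 (edgeR adjusted p = 4.86e-04). The splicing repressor HNRNPA1 rose by 0.82 ± 0.13 (edgeR adjusted p = 0.00235), and reads of this gene can be split with its processed copies. HNRNPF rose by 0.52, and EWSR1, an RNA-binding protein of paraspeckles, measured 0.30 and was not called. NUDT21 and CPSF6 form the cleavage factor that promotes the poly(A) site of the short NEAT1 isoform, and HNRNPK opposes it. NUDT21 rose by 0.58 ± 0.13 (edgeR adjusted p = 0.0102), and CPSF6 (0.27) and HNRNPK (0.28) were not called. The genes called lower were ZC3H6, at 21.3 and 21.3 CPM in control and 11.3 and 6.94 CPM in PRMT5 KD (−1.22 ± 0.23, edgeR adjusted p = 0.00552), and AHDC1 (−0.83 ± 0.15). With a library left out, NUDT21 lost its call without control replicate 1 (0.48) or PRMT5 KD replicate 2 (0.49), and HNRNPF without control replicate 1 (0.55), control replicate 2 (0.50) or PRMT5 KD replicate 1 (0.50). Corrected for length and GC content, HNRNPF (0.30) and NUDT21 (0.49) were not called. The shares called were 16.7% of the list higher and 6.67% lower, beside 21.9% and 23.6% of all names.

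Proteins of nuclear speckles, where MALAT1 gathers, gave 6 called higher (33.3%) and 1 called lower (5.56%) of 18 tested, beside 21.9% and 23.6% of all names, with a median of 0.20. RNPS1, a splicing activator of the exon junction complex, rose from 70.7 and 61.1 CPM to 132 and 127 CPM (0.97 ± 0.12, edgeR adjusted p = 0.00115). The splicing factors SRSF3, SRSF2 and SRSF7 rose by 0.81, 0.67 and 0.67. CLK1, a kinase that phosphorylates SR proteins, fell from 62.4 and 55.3 CPM to 30.9 and 30.5 CPM (−0.94 ± 0.12, edgeR adjusted p = 0.00122). With the length and GC correction SRSF2 (0.40) and SRSF7 (0.48) were not called, and the list had 4 genes called.

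Genes that mature or hold the ends shown above were listed next, as 10 protein subunits of RNase P, the RNase Z gene ELAC2 and METTL16, which binds the MALAT1 triple helix. Of these 12, 7 were called higher (58.3%, beside 21.9% of all names) and none was called lower (beside 23.6%), with a median of 0.65. POP7 rose from 4.19 and 4.35 CPM to 11.3 and 11.9 CPM (1.44 ± 0.16, edgeR adjusted p = 7.52e-04). RPP30, RPP40 and RPP14 rose by 0.98, 0.95 and 0.74, and ELAC2, which trims the far side of the small RNAs, by 0.71 ± 0.16. METTL16 measured −0.17 ± 0.13 and was not called. Without control replicate 1 the count called was 4 of 12. ELAC2 lost its call without control replicate 1 (0.74), control replicate 2 (0.68) or PRMT5 KD replicate 2 (0.48).

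RPPH1, the catalytic RNA of RNase P, was called lower. It measured 1553 and 2098 CPM in control and 1316 and 1049 CPM in PRMT5 KD (−0.63 ± 0.21, edgeR adjusted p = 0.0434). It belonged to a list of 8 other nuclear RNAs that was written with the values of RN7SK, RMRP, RPPH1 and TERC known, so that the direction of the list is not independent evidence. Of its 6 members tested, 5 were called lower (83.3%) and none was called higher, with a median of −0.71. PVT1 and MEG3 did not pass the filter on low values. PVT1 had 547 and 400 counts in control and 411 and 433 in PRMT5 KD, and MEG3 at most 6 in a library. With no filter 4 of 8 were called and with filterByExpr 3 of 7, all lower. Of all names 23.6% were called lower, and of lncRNA names 32.3%. KCNQ1OT1, an antisense lncRNA that silences an imprinted cluster, fell from 88.5 and 77.5 CPM to 16.2 and 24.8 CPM (−2.02 ± 0.21, edgeR adjusted p = 6.77e-04). RN7SK, which holds the elongation factor P-TEFb inactive, fell from 5871 and 7800 CPM to 2978 and 2197 CPM (−1.40 ± 0.26, edgeR adjusted p = 0.00469). TERC, the RNA template of telomerase, fell by 0.63 ± 0.11 and RMRP, the RNA of RNase MRP, by 0.80 ± 0.24 on the log2 scale. RN7SK has many partial copies in the genome that could take some of its reads. TUG1 measured −0.37 ± 0.11 and was not called. RMRP and RPPH1 lost their calls without control replicate 2 (−0.56 and −0.38) and without PRMT5 KD replicate 2 (−0.51 and −0.46), leaving 3 genes called each time. Among other settings, both were not called with filterByExpr (−0.73 and −0.56), with the length and GC correction (−0.48 and −0.40) or with totals outside rRNA (−0.64 and −0.46), where TERC (−0.46) was not called either.

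**Figure D4:**
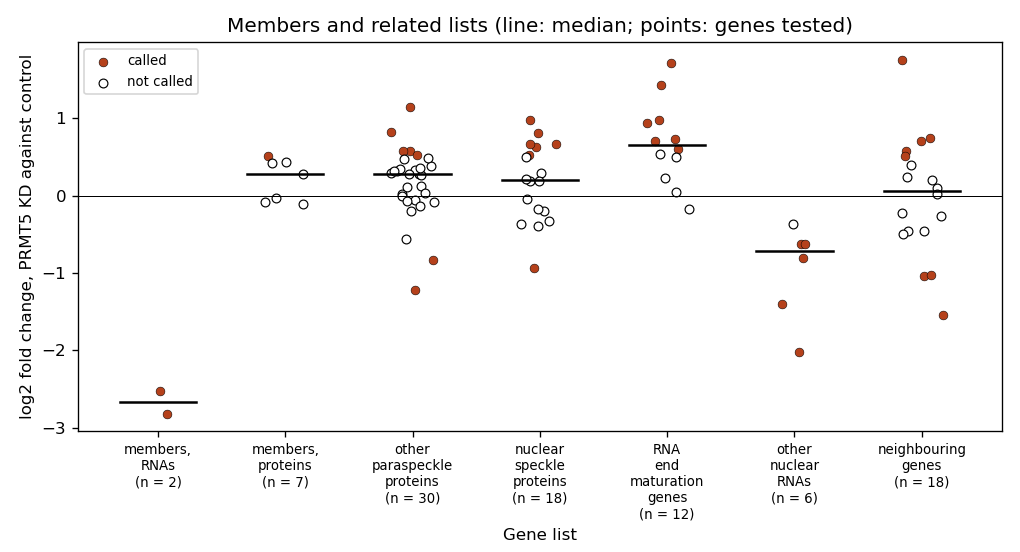
Points give the log2 fold change of PRMT5 KD against control for each gene tested in the members and the 5 lists, filled where called, and lines give medians. The medians are 0.28 for other paraspeckle proteins, 0.20 for nuclear speckle proteins, 0.65 for RNA end maturation genes, −0.71 for other nuclear RNAs and 0.06 for neighbouring genes, above the level of NEAT1 and MALAT1 in every list.

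Genes around NEAT1 and MALAT1 on chromosome 11 were called in each direction at shares near those of all names. Within 250 kb on either side, 56 genes are annotated, 27 of them were in the tables and 18 were tested. Of these, 5 were called higher (27.8%, beside 21.9% of all names) and 3 lower (16.7%, beside 23.6%), with a median of 0.06. FRMD8, whose start lies 36.2 kb before that of NEAT1, rose from 36.3 and 39.8 CPM to 52.1 and 56.3 CPM (0.51 ± 0.12, edgeR adjusted p = 0.0112). LTBP3, a binder of latent TGF-β, fell from 99.8 and 136 CPM to 43.8 and 37.5 CPM (−1.54 ± 0.18, edgeR adjusted p = 8.79e-04). EHBP1L1 fell by 1.02 ± 0.13, and LOC101927789, a pseudogene between NEAT1 and MALAT1 with at most 84 counts in a library, by 1.03 ± 0.28. Reads of this pseudogene could be split with copies elsewhere. POLA2, a subunit of DNA polymerase alpha, rose from 21.5 and 17.9 CPM to 60.3 and 72.3 CPM (1.75 ± 0.15, edgeR adjusted p = 4.21e-04). SSSCA1 (0.75), KAT5 (0.70) and DPF2 (0.58) were the others called higher. FRMD8 lost its call without control replicate 1 (0.44) or PRMT5 KD replicate 2 (0.47), and LOC101927789 without either control library (−0.97 and −1.08). Without control replicate 2, DPF2 (0.51), KAT5 (0.62) and SSSCA1 (0.74) lost theirs, and 4 neighbouring genes were called. The hairpin MIR612 lies inside the long NEAT1 isoform and had at most 3 counts in a library, too few for a comparison.

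**Figure D5:**
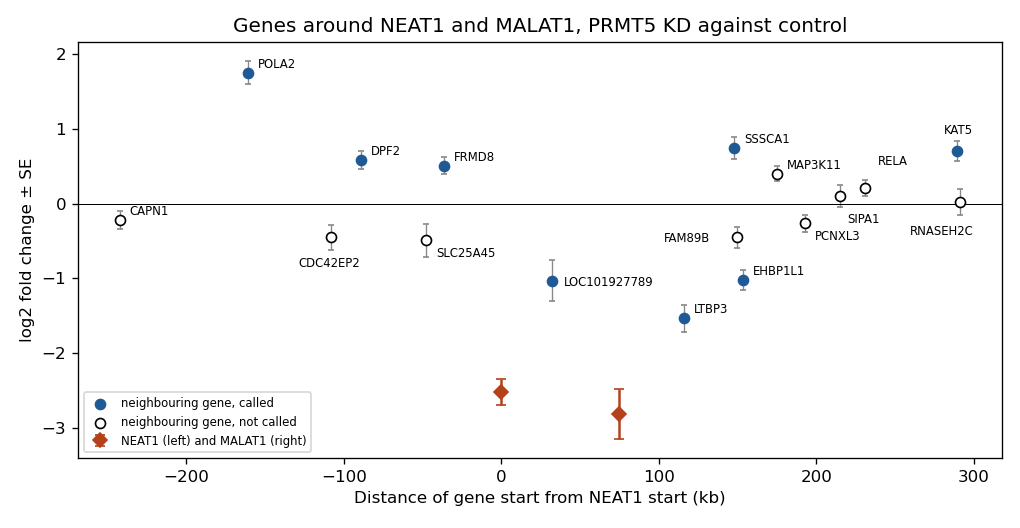
The x axis gives the distance of each gene's start from that of NEAT1 in kb and the y axis the log2 fold change ± SE. NEAT1 (−2.52) and MALAT1 (−2.81) lie below every neighbouring gene shown, 17 of the 18 tested, which range from −1.54 (LTBP3) to 1.75 (POLA2).

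Names whose pattern over the 4 libraries was nearest to each RNA were ranked by the root mean square difference of centred log2 CPM. For NEAT1 these were GABRG1 (0.0705), NYAP1 (0.0806), SALL4 (0.0945), MRPS6 (0.112) and CAPS (0.115), and MALAT1 came at place 169 with 0.331. For MALAT1 they were FRAS1 (0.0719), AKR1C3 (0.0979), LOC100996813 (0.113), PLSCR4 (0.114) and DBH-AS1 (0.137), and NEAT1 came at place 83. MRPS6 followed NEAT1 at a lower level, with 64.8 and 53.9 CPM in control and 11.7 and 9.86 CPM in PRMT5 KD. AKR1C3 shared the split between PRMT5 KD libraries seen for MALAT1, with 445 and 462 CPM in control and 44.9 and 77.4 CPM in PRMT5 KD. Most of the others were near the floor in PRMT5 KD. GABRG1, NYAP1, SALL4 and CAPS had at most 1.17 CPM there, LOC100996813 0.0991 and 0.201 CPM, and DBH-AS1 0.430 and 0.704 CPM. The measure covers 4 libraries only.

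The RefSeq promoters of GRCh38.p14, from 250 bases before to 50 after each start, held 9 entries for 7 of the 9 members. NEAT1 and SFPQ had no entry, so nothing was searched for them. TATAAA, on either strand, was found in an entry of MALAT1 and in no other member, beside 11.5% of 35116 promoters. CCAAT was found in NONO and RBM14 (34.6% of all promoters), GGGCGG in DAZAP1, MALAT1, MATR3 and TARDBP (44.95%), and CACGTG in none of the 9 entries (7.26%). These letters are a description of the windows.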

How the data were processed

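Total RNA of 4 samples labelled UMSCC74B (2 control, 2 PRMT5 KD) had been made into directional libraries and sequenced on a Singular Genomics G4. The authors deposited estimated counts per gene, 1 table per library, unnormalized and with 86.0% to 86.8% of values whole. The submitters' processing notes name FastQC, Trim Galore, STAR, Salmon, DESeq2 and GRCh38. The methods describe FeatureCounts on protein-coding genes, which the tables do not match, since they hold decimals and rRNA names. Whether counting used strand is not given in the sources used here, so MALAT1 and its antisense transcript cannot be told apart.

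Of 29744 rows, 28 with names turned into dates were left out (0.150% to 0.161% of counts). Rows of the same name were summed to 29655 names, and 24603 of these received an exon length from GENCODE 44 by symbol (21877) or RefSeq synonym (2726). Counts were rounded. A name entered the fit where both libraries of a group reached an RPKM of 0.5 (a CPM of 0.5 for names without a length). All such names were tested with the quasi-likelihood test of edgeR 4.0.16 in R 4.3.3, robust, with TMM scaling and Benjamini-Hochberg adjustment, without a replicate term. The test was tried first on simulated data with far fewer changed names than were called here, so that trial does not cover this setting. Totals of 52185289 to 65964558 counts set the depth, and intervals cover counting error only.

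The members and lists were chosen with earlier results of these data known. Named genes are the members, PRMT5, up to 4 called genes of smallest adjusted p in each direction per list, genes needed for their role, all neighbouring genes called, and the 5 names nearest to each RNA. HNRNPF and TUG1 were named after their values were seen, and a few genes are not reported here. Alternatives were DESeq2 1.42.0, other scalings, filters and thresholds, a replicate block, a length and GC correction (splines, 4 degrees of freedom) and leaving out a library at a time. Protein sequences were not used here.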

Additional observations from a re-analysis of the deposited data

How the results depend on the processing

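NEAT1 and MALAT1 kept their direction and their call under every alternative run. Scaling by total counts without rRNA called 5 of 9 members, 13 of 30 other paraspeckle proteins and 2 of 6 other nuclear RNAs, and split all calls into 3869 higher and 2341 lower. A fit was run on protein-coding names with NEAT1 and MALAT1 added. There, 0 of the 1 remaining other nuclear RNA was called, TUG1, which the annotation types as protein-coding. TARDBP (0.46), HNRNPF (0.47) and FRMD8 (0.46) lost their calls, leaving 2 members called, the added NEAT1 and MALAT1. NONO was called with filterByExpr (0.50) and with no filter (0.51). LOC101927789 lost its call with the length and GC correction (−0.65). RMRP and RPPH1 lost theirs with the replicate block (−0.82 and −0.62), RMRP with no filter (−0.73) and RPPH1 in the fit that was not robust (−0.63). The other nuclear RNAs called were 3 with filterByExpr, 3 with the replicate block, and 3 with the correction for length and GC content, block or not, and the nuclear speckle proteins called were 4 with the correction either way. With the fold change threshold raised to 1 (log2), 2872 names were called, with 2 other paraspeckle proteins, 0 nuclear speckle proteins, 2 RNA end maturation genes, 2 other nuclear RNAs and 4 neighbouring genes. With 1 library left out, names called ranged from 3895 (without control replicate 2) to 6086, RNA end maturation genes from 4 to 7, other nuclear RNAs from 3 to 5 and neighbouring genes from 4 to 9. The small differences of 3 members changed sign. SFPQ was 0.022 with total counts, 0.14 without rRNA, 0.041 with filterByExpr, 0.046 with no filter, 0.038 with the length and GC correction and 0.034 with its block, and ranged from −0.15 to 0.10 with a library left out. MATR3 was 0.092 without rRNA and 0.097 with the correction, block or not. PSPC1 was 0.059 without rRNA and ranged from −0.23 to 0.022 with a library left out. The median log2 ratio of NEAT1 to its partners in control, 2.47, was 5.20 with the length of the short isoform and 4.35 from counts without lengths. It was 1.65 with the longest transcript, an alternative chosen after seeing the data. Replicate numbers were not shown to be pairs (correlation of same-numbered deviations −0.12), and the block called 5650 names. With the numbers crossed, also chosen after seeing the data, 6035 were called. DESeq2 called 5964 names beside 5932. For the 52 named genes other than NEAT1 and MALAT1, 751 of 822 alternative values kept direction and side of the threshold, 49 lost the call, 9 gained it and 13 changed sign. The cause of these shifts was not tested.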
